A study of Homo sapiens with 12 samples.

Results

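The comparison described here set K562 cells lacking ZSWIM8 against the wild-type line, and its members were all 868 microRNAs of the authors' deposited table for that comparison, of 952 microRNAs in either table of the series. K562 is a human erythroleukaemia line that resembles precursors of red cells and megakaryocytes. The 6 libraries were 3 of the wild type (WT) and 3 of the genotype ZSWIM8-/- (ZSWIM8 KO), biological triplicates per the labels. The labels name no guide RNA for either group, and both were grown in RPMI with fetal bovine serum. How the ZSWIM8-/- cells were made was not examined here. The sources used here do not say whether ZSWIM8 KO is 1 clone. If it is, changes from ZSWIM8 loss and from cloning cannot be told apart. The other table of the series, with 837 microRNAs, compared cells given a guide to CYRANO, a long non-coding RNA (sgCYRANO, 3 libraries), with cells given a non-targeting one (sgNT, 3 libraries). The ZSWIM8 comparison addresses which microRNAs differ in level between ZSWIM8 KO and WT.

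ZSWIM8 picks the substrates of a ubiquitin ligase built on a Cullin. A target RNA that pairs extensively with a microRNA, beyond the seed, can lead this ligase to the Argonaute protein that carries the microRNA, and the freed microRNA is then degraded. This is called target-directed microRNA degradation, and CYRANO is a trigger RNA of this kind for miR-7. A hairpin yields a strand from each arm (5p and 3p), and the strand loaded into Argonaute usually accumulates while its partner is lost. Bases 2 to 8 of a mature microRNA, the seed, decide most of its targets.

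Strands among the calls with the largest changes at 10 CPM (counts per 1000000 reads) or more are shown first, so that their seeds can be compared, and miR-183-5p is added because it shares a cluster with miR-182-5p and miR-96-5p. RefSeq mature sequences (GRCh38.p14) matched 786 of the 868 microRNAs, and the seed is in capitals. miR-7-5p and miR-1301-3p rose, and the others in this set fell.
miR-7-5p: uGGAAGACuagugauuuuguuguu
miR-1301-3p: uUGCAGCUgccugggagugacuuc
miR-221-3p: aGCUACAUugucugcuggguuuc
miR-222-3p: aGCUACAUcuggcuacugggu
miR-1246: aAUGGAUUuuuggagcagg
miR-215-5p: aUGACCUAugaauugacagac
miR-99a-5p: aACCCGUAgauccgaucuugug
miR-182-5p: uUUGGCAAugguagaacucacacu
miR-96-5p: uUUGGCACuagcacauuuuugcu
miR-183-5p: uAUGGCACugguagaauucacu
The seed GCUACAU is common to miR-221-3p and miR-222-3p, which differ at 10 of the positions after it that both have. miR-182-5p, miR-96-5p and miR-183-5p come from 1 transcript and hold 3 seeds.

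Values are group means in CPM, recovered from the deposited columns, since no values of single libraries were analysed here, and the spread between libraries and any library that stands apart could not be examined. The errors after ± are standard errors of the log2 fold change implied by the deposited p-values. Fold changes are ZSWIM8 KO over WT, taking the second-named group as the numerator, which the file headers do not state. The library totals read from the smallest values were 860000 to 1851000 reads in WT and 2091000 to 2486000 in ZSWIM8 KO. With 3 counts over the group as the limit, a mean of 0 leaves room for up to 0.788 CPM in WT and, in ZSWIM8 KO, 0.425 CPM (counting error only). Small-RNA tables hold no messenger RNA, so the loss of ZSWIM8 itself was not examined. The 6 listed microRNAs of erythroid, megakaryocytic and myeloid cells were all measured, with a sum of 59124 CPM in WT that became 64340 CPM in ZSWIM8 KO. miR-126-3p, of megakaryocytes and their precursors, made up most of this sum with 42776 and 48225 CPM. Of the 6, 0 passed the test, beside 23.0% of all microRNAs at 10 CPM or more. Of the listed markers of other cell types 10 were measured and 0 called, beside 9.91% of all 868 microRNAs. Lists this short cannot tell 0 calls from these shares. The liver marker miR-122-5p was at 0.954 and 1.55 CPM and the muscle marker miR-1-3p at 0.748 and 1.31 CPM, and the sums were 558 and 1396 CPM for the neural list (miR-9-5p alone), 3679 and 3278 for 2 lymphoid strands, 98.4 and 138.6 for 3 epithelial strands and 31.1 and 29.3 for 2 smooth muscle strands. Their part in the results was not tested.

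Calls, here those with an adjusted p of 0.05 or less in the authors' deposited table (edgeR), were 86 of the 868 microRNAs (9.91%), with 41 higher in ZSWIM8 KO (4.72%) and 45 lower (5.18%). At a mean of 10 CPM or more the calls were 70 of 304 (23.0%), 38 higher and 32 lower. Most changes were small. Of these 38 rises, 23 were 1.5-fold or more, 9 were 2-fold or more and 1, miR-7-5p, was 4-fold or more. Of the 32 falls, the counts were 20, 9 and 2, the last being the 3p strands of miR-221 and miR-222. The median log2 fold change of the calls at 10 CPM or more was 0.70 for those higher and -0.72 for those lower. The median over all 304 was 0.13, with 184 above 0. With fold changes centred on that median the calls were 92, of which 30 were higher and 62 lower: 11 rises were lost, 17 falls were gained and no rise was gained. Since the variance was mostly shared between microRNAs, the calls also depend on that sharing, and the deposited F read with 4 denominator degrees of freedom left 3 calls, miR-7-5p, miR-221-3p and miR-222-3p.

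**Figure D1:**
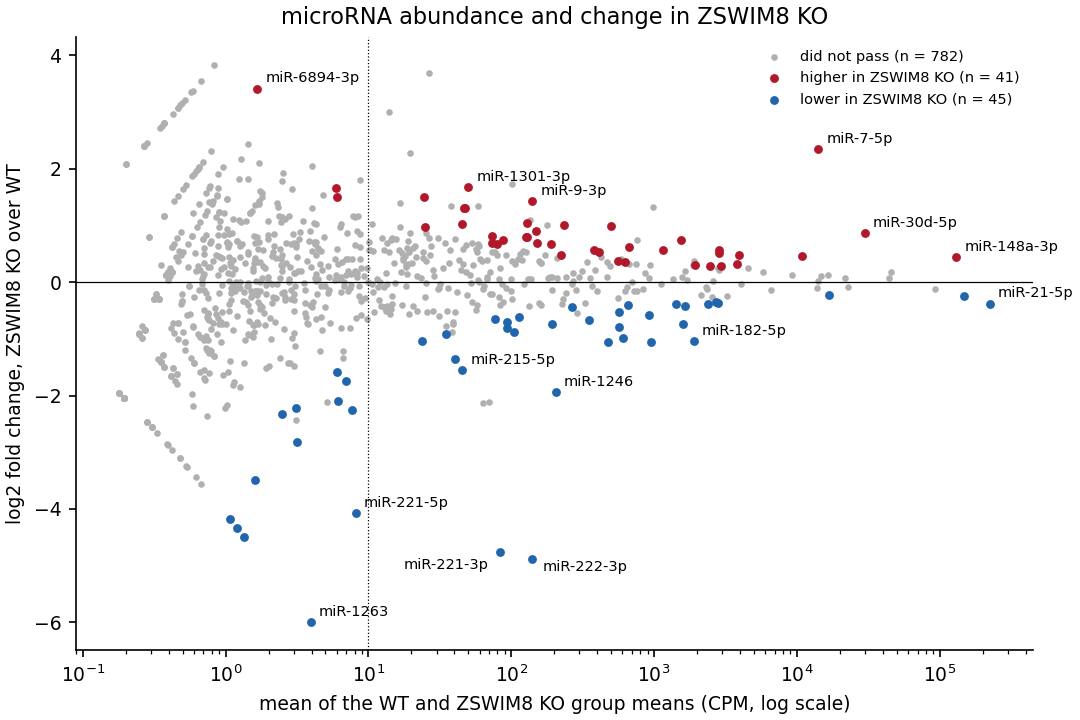
Log2 fold change (ZSWIM8 KO over WT) of each of the 868 microRNAs against the mean of both group means in CPM on a log axis, with calls in red (41 higher) and blue (45 lower) and the dotted line at 10 CPM. miR-7-5p stands above the other abundant microRNAs and miR-221-3p and miR-222-3p below them, and the spread of the grey points widens towards low CPM.

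The share of calls rose with abundance. Of the 257 microRNAs under 1 CPM 0 were called, with a median standard error of 1.45 on the log2 scale, and of the 307 from 1 to 10 CPM 16 were called, 3 higher and 13 lower. From 100 to 1000 CPM 29 of 92 (31.5%) and from 1000 CPM 23 of 52 (44.2%) were called, with median standard errors of 0.16 and 0.10. The 52 microRNAs from 1000 CPM held almost all reads (95.9% in ZSWIM8 KO). Where a microRNA was not called, its interval says how large a change remains possible. Over all microRNAs at 100 CPM or more, called or not, the 95% interval stayed within a 1.5-fold change for 72 of 144.

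Among the rises, miR-7-5p, which is abundant in neural and neuroendocrine cells and represses growth-factor signalling genes, went from 4617 to 23494 CPM. Its log2 fold change in the authors' deposited table was 2.35 ± 0.14 (edgeR, adjusted p = 8.48e-61). No other call at 10 CPM or more rose by more than 3.20-fold. That next value belonged to miR-1301-3p, which lies in an intron of DNMT3A, a DNA methyltransferase gene, at chr2:25328651-25328674 on the - strand (GRCh38). It went from 23.8 to 76.2 CPM, and the authors' deposited table lists 1.67 ± 0.28 (edgeR, adjusted p = 1.33e-07).

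Both arms of the hairpin in an intron of FAM114A1 rose together, miR-574-5p from 27.1 to 66.9 CPM and miR-574-3p from 29.8 to 60.8 CPM. The neural strand miR-9-3p rose from 76.0 to 204.4 CPM. Its partner miR-9-5p went from 558 to 1396 CPM and did not pass, with 1.32 ± 0.54 in the authors' deposited table (edgeR, adjusted p = 0.106). The arm values 1.43 and 1.32 lay close together, and the error of miR-9-5p, here computed from F (the log2 fold change divided by the square root of F), was 2.92 times the median of microRNAs of like abundance. miR-135b-5p, from an intron of LEMD1, rose from 335 to 665 CPM, a value of 0.99 ± 0.14 in the authors' deposited table (edgeR, adjusted p = 4.94e-10). Its seed relative miR-135a-5p had 0.87 and was not called. miR-1307-5p rose from 27.3 to 67.8 CPM and miR-425-3p from 16.9 to 33.2 CPM, the latter not called relative to the median.

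The falls of miR-221-3p (159.8 to 5.76 CPM) and miR-222-3p (270.7 to 9.10 CPM), both repressors of the cell cycle inhibitor gene CDKN1B, took in all 4 measured strands of this cluster. Their log2 fold changes in the authors' deposited table were -4.76 ± 0.48 and -4.88 ± 0.58 (edgeR, adjusted p = 2.71e-20 and 5.87e-15). Both 3p strands lie in an intron of MIR222HG. The next largest fall among the calls at 10 CPM or more was that of miR-1246, from 325 to 84.5 CPM, and the authors' deposited table lists -1.94 ± 0.20 (edgeR, adjusted p = 2.71e-20).

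miR-215-5p, which is induced by p53, fell from 67.5 to 22.9 CPM. Its seed relative miR-192-5p had a log2 fold change of 0.30 and was not called, and miR-194-5p, whose copies lie beside both, had 0.28. miR-99a-5p, which represses mTOR, fell from 58.1 to 22.6 CPM, and miR-125b-5p from 9.97 to 2.25 CPM. These microRNAs come from introns of the same host transcript, MIR99AHG, although miR-125b-5p has a second copy in MIR100HG. The lens and corneal microRNA miR-184 fell from 45.6 to 24.2 CPM and miR-581, from an intron of ARL15, from 32.0 to 15.4 CPM.

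**Figure D2:**
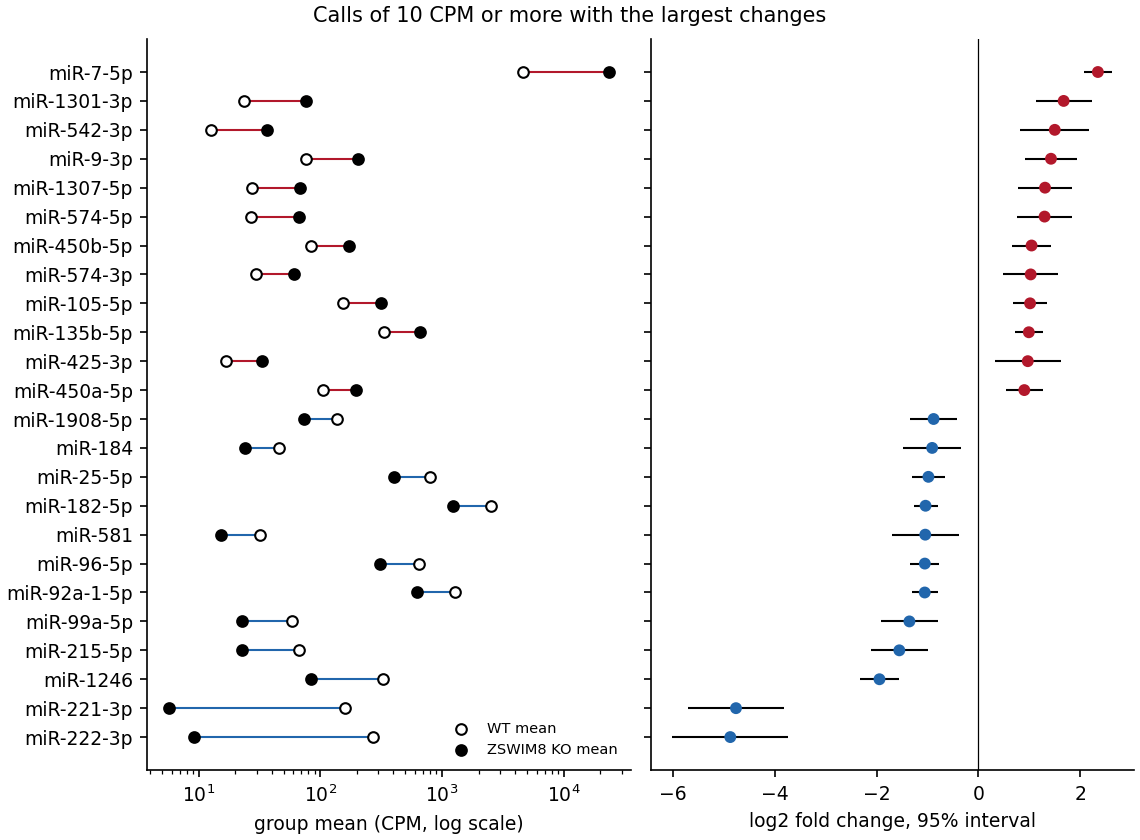
Left, group means in CPM on a log axis of WT (open circles) and ZSWIM8 KO (filled circles) for the 12 largest rises and 12 largest falls among calls at 10 CPM or more. Right, their log2 fold changes with 95% intervals, where miR-7-5p at 2.35, miR-221-3p at -4.76 and miR-222-3p at -4.88 lie outside the range of -1.94 to 1.67 that holds the rest.

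Under 10 CPM, 13 of the 16 calls were lower. Of these, 4 had a mean of 0 in ZSWIM8 KO, and their WT means were 7.89 CPM for miR-1263, 2.69 for miR-7706, 2.41 for miR-222-5p and 2.13 for miR-4761-3p. miR-1263, whose hairpin lies outside annotated genes on chromosome 3, was the highest of them. miR-944, from an intron of TP63, which encodes a p53 relative of epithelia, fell from 12.7 to 2.57 CPM. The 3 rises were miR-3177-3p (2.77 to 9.04 CPM), miR-10399-3p (3.10 to 9.04 CPM) and miR-6894-3p, whose WT mean of 0.180 CPM was under the limit of 3 counts.

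The abundant microRNAs moved little in ratio but by many reads. miR-21-5p, an oncogenic microRNA and the most abundant strand, fell from 252556 to 194067 CPM and its partner miR-21-3p from 241.4 to 145.5 CPM. miR-148a-3p rose from 111261 to 150391 CPM. miR-30d-5p, of the miR-30 family, rose from 21115 to 38430 CPM, a value of 0.86 ± 0.09 in the authors' deposited table (edgeR, adjusted p = 4.03e-20). The gain of miR-30d-5p, 1.82-fold, was the second largest at 1000 CPM or more after miR-7-5p. Of the 10 most abundant microRNAs 5 were called, 2 higher and 3 lower, and these 10 held 79.0% of reads in WT and 76.0% in ZSWIM8 KO.

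Further rises at 100 CPM or more were those of miR-340-5p (1157 to 1926 CPM), from an intron of RNF130, of miR-744-5p (525 to 810 CPM), from an intron of MAP2K4, of miR-185-5p (3310 to 4614 CPM) and of miR-24-3p (2315 to 3410 CPM), which represses cell cycle genes. Further falls were those of miR-4521 (724 to 416 CPM), miR-146b-3p (669 to 463 CPM) and miR-27a-5p (430 to 272 CPM). miR-24-3p and miR-27a-5p come from neighbouring hairpins on chromosome 19 and went opposite ways. The same held on chromosome 9 for miR-27b-5p (94.7 to 60.4 CPM) beside the other copy of miR-24-3p.

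Members of a seed family share many of their targets. Families were built from the 270 microRNAs at 10 CPM or more with a RefSeq sequence, so miR-30d-5p, which has none, was left out. Of 26 families with at least 2 such members, 6 had at least 2 calls and 0 had calls in both directions. Sequences are shown for 4 of these 6: miR-148, miR-130 and miR-92, where some members were called and others not, and miR-19, where the members differ by a single base.
miR-148a-3p: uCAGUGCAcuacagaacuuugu
miR-148b-3p: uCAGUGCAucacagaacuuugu
miR-152-3p: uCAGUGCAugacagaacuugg
miR-130b-3p: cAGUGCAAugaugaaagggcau
miR-454-3p: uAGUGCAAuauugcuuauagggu
miR-301b-3p: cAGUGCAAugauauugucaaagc
miR-92a-3p: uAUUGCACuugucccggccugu
miR-25-3p: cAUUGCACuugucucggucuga
miR-92b-3p: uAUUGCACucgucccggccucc
miR-32-5p: uAUUGCACauuacuaaguugca
miR-19a-3p: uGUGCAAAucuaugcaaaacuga
miR-19b-3p: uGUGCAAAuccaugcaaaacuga
With positions counted from 1 at the 5′ end, miR-148a-3p and miR-148b-3p differ by C9U and U10C, and miR-19a-3p and miR-19b-3p by U11C.

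In the miR-148/152 family, which represses the DNA methyltransferase gene DNMT1, miR-148a-3p rose by 0.43 ± 0.07 and miR-148b-3p by 0.51 ± 0.10 on the log2 scale in the authors' deposited table (edgeR, adjusted p = 4.31e-08 and 3.02e-05). The other member, miR-152-3p, had 0.05 and did not pass. The called members lie on separate chromosomes, 7 and 12. In the family of miR-130b-3p, miR-130b-3p rose from 307 to 453 CPM and miR-454-3p from 116 to 188 CPM, while miR-301b-3p had a log2 fold change of 0.49 and did not pass. In the family of miR-92a-3p, miR-92a-3p (159093 to 134670 CPM) and miR-25-3p (17966 to 15333 CPM) fell, and miR-92b-3p and miR-32-5p did not pass. The family's 4 log2 fold changes ran from -0.24 to -0.01.

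The let-7 family represses growth genes such as those of RAS and HMGA2. It had 2 rises and no fall among the 7 measured strands of its list, with a median log2 fold change of 0.39. All 7 were at 10 CPM or more, where 70 of 304 were called (23.0%) with a median of 0.13, so the share of calls was near that of all such microRNAs. let-7g-5p rose from 928 to 1369 CPM, and let-7f-5p from 3402 to 4261 CPM, the latter not called relative to the median of abundant microRNAs. let-7b-5p went from 48.3 to 29.7 CPM and did not pass. Among the 6 measured strands of the miR-30 list, miR-30d-5p rose and miR-30e-3p fell (3152 to 2435 CPM), and 4 did not pass. The lists of miR-29 (0 of 3 strands) and miR-181 (0 of 5) had no call, with medians of 0.35 and 0.32. Other strands of these families were measured outside the lists, among them miR-30c-1-3p and miR-29a-5p. Over all microRNAs 86 of 868 were called (9.91%, or 23.0% at 10 CPM or more), with a median of 0.08. The 5 listed miR-181 strands ran from -0.75 for miR-181a-2-3p to 0.68 for miR-181a-5p. Outside the list, miR-181b-2-3p went from 4.46 to 1.53 CPM (-1.47 on the log2 scale) and did not pass. In the list of miR-99, miR-100 and miR-125 strands 2 of 7 fell and 5 did not pass, beside the same shares, with a median of -0.53. The 5 included the most abundant strands, miR-99b-5p (4157 to 4960 CPM) and miR-125a-5p (4126 to 4058 CPM). The sum over the list went from 8860 to 9514 CPM. These lists were chosen with results of these data known and carry no test of their own.

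MicroRNAs cut from 1 primary transcript were compared next, taking hairpins within 10 kb on 1 strand as a cluster. Among microRNAs at 10 CPM or more with a RefSeq sequence, 30 clusters had at least 2 strands. Of these clusters, 9 had at least 2 calls and 2 had calls in both directions, the pair of miR-24 clusters. The cluster of miR-183, miR-96 and miR-182, known from sensory organs and several carcinomas, lies outside annotated genes at chr7:129770447-129774988 (GRCh38), and its 3 abundant strands all fell. miR-182-5p went from 2546 to 1239 CPM, miR-96-5p from 643 to 310 CPM and miR-183-5p from 1993 to 1188 CPM. In the authors' deposited table their log2 fold changes were -1.04 ± 0.12, -1.05 ± 0.14 and -0.75 ± 0.11.

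In the miR-17~92 cluster, an oncogenic transcript that promotes proliferation, 5 of 9 strands fell, none rose, and the median log2 fold change was -0.38, beside 32 falls and 38 rises among all 304 at 10 CPM or more and their median of 0.13. The strand with the largest fall was miR-92a-1-5p (1290 to 621 CPM), the minor partner of miR-92a-3p. miR-18a-3p fell from 1608 to 1237 CPM, miR-19a-3p from 3015 to 2373 CPM and miR-19b-3p from 1896 to 1417 CPM. miR-17-5p (15692 to 17213 CPM) and miR-20a-5p (23659 to 22176 CPM) did not pass, so the strands of this cluster ran from -1.05 to 0.13. Of the 5 falls, 3 were of strands made from chromosome 13 alone. miR-19b-3p and miR-92a-3p also have a copy in a chromosome X cluster, so their falls cannot be assigned to this transcript alone. In the related cluster in an intron of MCM7, a replication licensing gene, both strands of miR-25 fell, and the 4 strands of miR-93 and miR-106b lay between -0.02 and 0.25 without a call.

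**Figure D3:**
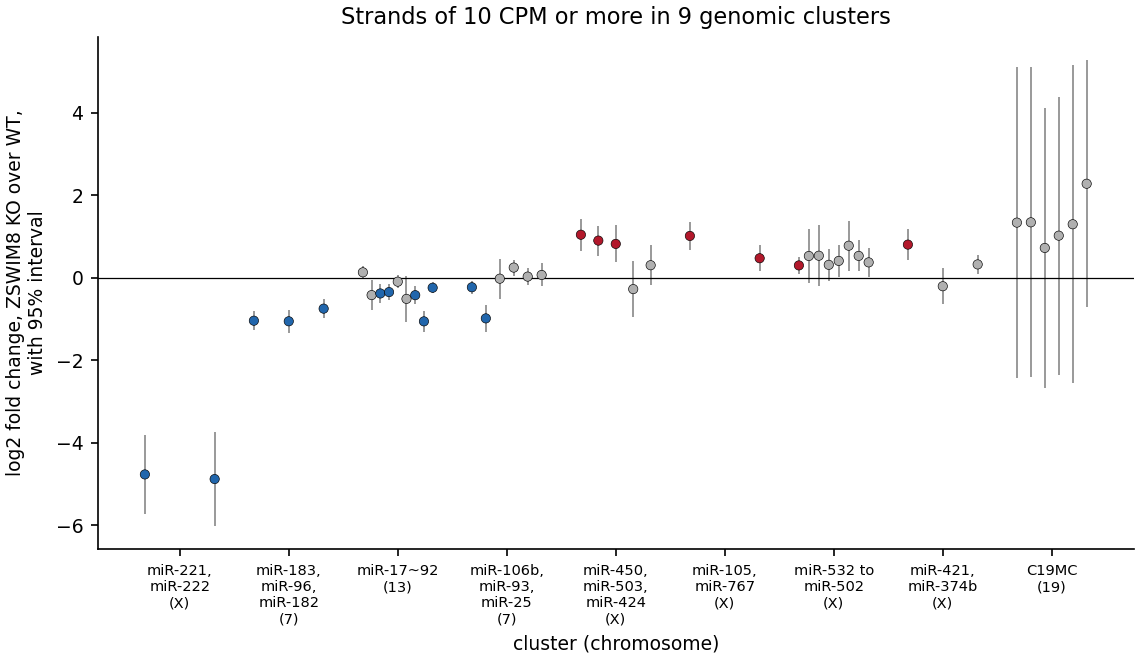
Log2 fold change (ZSWIM8 KO over WT) with 95% interval of strands at 10 CPM or more with a RefSeq sequence in 9 genomic clusters. Clusters are named by their hairpins with the chromosome in brackets, with red for higher calls, blue for lower calls and grey for no call. The strands of miR-221, miR-222, miR-183, miR-96 and miR-182 shown were all called lower, those of miR-17~92 and of miR-25 with its neighbours were partly so, and the 6 strands of the chromosome 19 cluster lie above 0 with intervals that all include 0.

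Several clusters of chromosome X held rises. In the Xq26 cluster, known for repressing cell cycle genes, 4 of the 8 measured strands of its list rose. These were miR-450b-5p (83.7 to 172.6 CPM), miR-450a-5p (104.4 to 195.1 CPM), miR-503-5p (52.8 to 93.4 CPM) and miR-542-3p (12.7 to 36.2 CPM). The share called was 9.91% over all microRNAs and 23.0% at 10 CPM or more. The other 4 listed strands did not pass, among them the most abundant of the 8, miR-424-3p (616 to 510 CPM). Outside the list, miR-450a-1-3p (2.86 to 2.36 CPM) did not pass either. The cancer-testis microRNAs in GABRA3 introns also rose, miR-105-5p from 155 to 314 CPM and miR-767-5p from 186 to 259 CPM. All 8 strands of the cluster from miR-532 to miR-502, in CLCN5 introns, had positive log2 fold changes from 0.30 to 0.78 with 1 call, miR-532-5p (1730 to 2131 CPM). The calls of miR-767-5p and miR-532-5p were lost relative to the median. Over the 33 microRNAs at 10 CPM or more with a RefSeq sequence from chromosome X alone, 8 rose and 3 fell. Among all 304 the counts were 38 and 32. The median of the 33 was 0.37 against 0.13 over all 304, and 24 lay above that overall median. Chromosome X was singled out after its values were seen. The median of the same chromosome in sgCYRANO was -0.10.

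The arms of 209 hairpins could be compared. Their log2 fold changes differed in 11 (5.26%, normal test of the difference, Benjamini-Hochberg adjusted p of 0.05 or less), all 11 with both arms at 10 CPM or more, where 71 hairpins were compared. The difference was 3.13 ± 0.32 for MIR7-1, since miR-7-1-3p went from 44.3 to 25.7 CPM without passing the test while miR-7-5p rose. This strand miR-7-5p is also made from other hairpins, as are the shared strands of MIR16-2, MIR181A2 and MIR92A1, and among hairpins whose strands come from 1 hairpin alone 7 passed.

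In 4 of the 11 the less abundant arm fell by more than the other. For MIR32, miR-32-5p was at 699 and 697 CPM while miR-32-3p fell from 118.7 to 67.9 CPM (difference 0.80 ± 0.25, normal test, adjusted p = 0.022). For MIR16-2, miR-16-5p was at 1132 and 1112 CPM while miR-16-2-3p fell from 1099 to 734 CPM. MIR25 and MIR92A1 were alike in this, with 5p strands that fell by 0.98 and 1.05 on the log2 scale against 3p strands that fell by 0.23 and 0.24.

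For miR-148a the abundant 3p strand rose and the 5p strand (665 to 595 CPM) did not pass. The reverse was seen for MIR130B, where the abundant miR-130b-5p (6843 to 6250 CPM) did not pass and miR-130b-3p rose, and for MIR223, of myeloid cells, where miR-223-5p fell from 2712 to 2080 CPM and miR-223-3p (844 to 1039 CPM) did not pass. MIR671, in an exon of CHPF2, was the 1 hairpin with its arms called in opposite directions, miR-671-5p from 61.1 to 97.7 CPM and miR-671-3p from 308 to 226 CPM (difference 1.12 ± 0.27, normal test, adjusted p = 0.00125). The rise of miR-671-5p was lost relative to the median. Both arms were called in 9 hairpins, and in 8 they went the same way. For MIR1307, in an exon of ATP5MD, both arms rose, the scarce miR-1307-5p by 1.02 ± 0.29 more on the log2 scale than the abundant miR-1307-3p, whose own call was lost relative to the median.

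For a view over all 71 hairpins, the major arm was taken as the more abundant in sgNT and sgCYRANO, libraries that play no part in the fold changes of ZSWIM8 KO. The minor arm had the lower log2 fold change in 48 of 71, and the median of major minus minor was 0.19. Where the major arm was at least 4-fold above the minor one, the minor arm was lower in 33 of 43, with a median of 0.29, and in the other 28 hairpins it was lower in 15, with 0.08. In sgCYRANO against sgNT, the same counts were 37 of 71 and 23 of 43, with medians of 0.01 and 0.01, but the arms were ranked on those libraries. Among the major arms 12 were called higher and 5 lower, and among the minor arms 8 and 8.

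**Figure D4:**
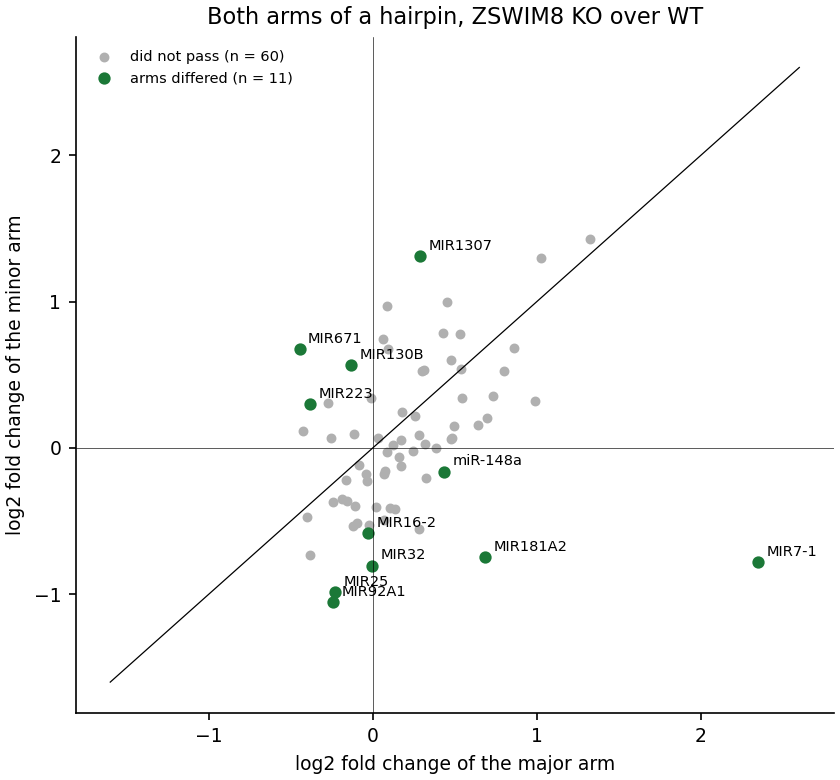
Log2 fold change (ZSWIM8 KO over WT) of the minor arm against that of the major arm for 71 hairpins with both arms at 10 CPM or more, with the line of equal change. Points in green are the 11 hairpins whose arms differed, of which 7 lie below the line and 4 above it, and MIR7-1 lies farthest from it.

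Some annotated microRNAs have the same sequence as part of another RNA. Of the 786 mature sequences, 11 lie in full within 1 of 5217 other annotated RNAs (small nuclear, small nucleolar, Cajal body, mitochondrial and similar), and 2 of the 11 were called, both lower, beside 9.91% called over all microRNAs. The sequence of miR-1246, shown above, lies within the U2 spliceosomal RNA under 8 annotated gene names, among them RNU2-1. miR-4485-3p, which fell from 10.7 to 3.12 CPM, lies within the mitochondrial ribosomal RNA gene MT-RNR2. Reads of these microRNAs and fragments of the other RNA cannot be told apart in these tables. The other 9, of which miR-1248 (27.8 and 30.1 CPM) and miR-12136 (25.8 and 18.1 CPM) were the most abundant, did not pass.

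Of the 304 microRNAs at 10 CPM or more, 23 had under 10 denominator degrees of freedom, as implied by the deposited F and p. Their errors, again computed from F, were 1.80 to 7.23 times the median of their neighbours in abundance. Of these 23, 0 were called, beside 23.0% of the 304. Large errors and few degrees of freedom make a call unlikely in advance, so this count says nothing about the size of their changes. Among the calls at 10 CPM or more this ratio was highest for miR-222-3p, at 1.49, and miR-221-3p, at 1.35. Several of the 23 had large differences between the group means. The epithelial and endocrine microRNA miR-375-3p went from 3.70 to 49.2 CPM, miR-584-5p from 46.9 to 156.4 CPM, miR-10b-5p, from the HOXD locus, from 114.4 to 26.4 CPM and miR-100-5p from 103.5 to 23.5 CPM. The erythroid strands miR-451a (574 to 956 CPM) and miR-144-3p (119 to 239 CPM) were also of this kind, as were all 6 strands of the chromosome 19 cluster shown in the plot of clusters, whose median log2 fold change was 1.32. Which libraries differed was not analysed here.

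The changes in ZSWIM8 KO were then set against those with the CYRANO guide, which used other libraries. In the authors' deposited table for sgCYRANO, 1 of 837 microRNAs was called (0.119%), miR-7-5p. Its log2 fold change was 2.35 ± 0.14 in ZSWIM8 KO and 2.52 ± 0.09 in sgCYRANO, a difference of -0.17 ± 0.17 (normal test, adjusted p = 0.766 over 753 microRNAs). The effects differed in 50 of 753 microRNAs (6.64%, adjusted p of 0.05 or less). Of the 86 calls 47 were among these, 25 rises and 22 falls, and 39 were not. Those that differed included miR-1301-3p, miR-30d-5p, miR-148a-3p, miR-135b-5p, miR-450b-5p, miR-221-3p, miR-222-3p, miR-1246, miR-182-5p and miR-92a-1-5p.

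Among the 86 calls 48 had the same sign in sgCYRANO. Over the 294 microRNAs at 10 CPM or more in both comparisons, Pearson's r of the log2 fold changes was 0.23 and 0.16 without miR-7-5p. This is across microRNAs, which are not independent replicates. Without miR-7-5p the SD of the log2 fold changes over these microRNAs was 0.72 in ZSWIM8 KO and 0.22 in sgCYRANO. miR-21-5p, miR-92a-3p, miR-24-3p and miR-130b-3p were calls in ZSWIM8 KO whose effect did not pass the test of a difference from sgCYRANO.

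**Figure D5:**
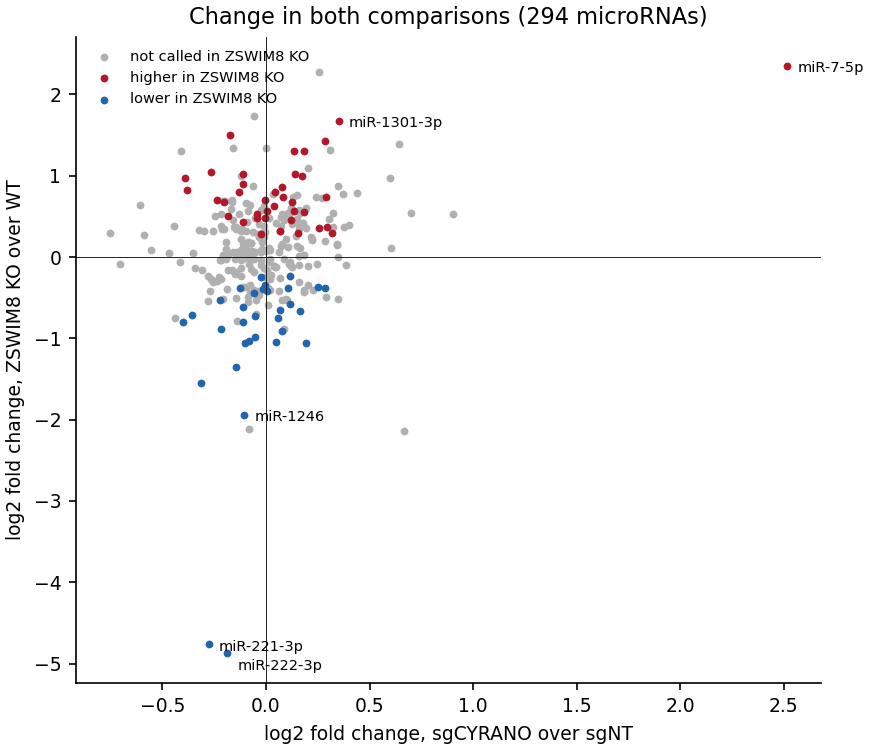
Log2 fold change in ZSWIM8 KO over WT against that in sgCYRANO over sgNT for the 294 microRNAs at 10 CPM or more in both comparisons, with calls of ZSWIM8 KO in red and blue. miR-7-5p lies at 2.35 and 2.52, apart from all others, and the SD of the other 293 is 0.72 on the vertical axis and 0.22 on the horizontal one.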

How the data were processed

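Total RNA (miRNeasy Mini) went into NEBNext small-RNA libraries, per the labels' protocols. Per the submitters' processing notes, the tools were edgeR, featureCounts, STAR, FastQC 0.11.2 and bcl2fastq, with build hg19 and no roles. The authors' deposited edgeR table gives, per the file headers, log2 fold change and log2 CPM, an F statistic (used as a score), a p-value and an adjusted p-value. The design had also planned for counts per library. Since the file holds comparisons, the deposited test was the main result, and a replicate block and left-out libraries were not run. The counting of reads common to near-identical microRNAs is not given in these sources, which leaves the split within such families uncertain.

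Group means were recovered by inverting both log2 columns (priors of 2 and 0.125) and summed to 1000000 CPM in each group, so the values tested had been scaled to library totals. In both groups all low values (335 in WT, 322 in ZSWIM8 KO) were whole reads within 0.0015 CPM. Standard errors are the size of the log2 fold change divided by the normal quantile of its deposited p. The variance was mostly shared between microRNAs (implied degrees of freedom most often 164.1). Differences of fold changes were tested against a normal reference with Benjamini-Hochberg adjustment. Procedures were tested on simulated data (Python 3.11.15, numpy 2.4.6, scipy 1.17.1, pandas 2.3.3). Sequences come from RefSeq (GRCh38.p14) and host genes from the GENCODE annotation of GRCh38.

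Named microRNAs are the 12 largest rises and falls among calls at 10 CPM or more, calls with a group mean of 0, the 5 most abundant calls and microRNAs, strands of hairpins whose arms differed, members of seed families and clusters with at least 2 calls, of the lists, and those nearest the threshold. Other names were chosen after their values were seen. The members, lists and rules were chosen with earlier results of these data known.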

Additional observations from a re-analysis of the deposited data

How the results depend on the processing

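The 86 calls, 41 higher and 45 lower, became 56 at an adjusted p of 0.01 (28 lower) and 40 with Holm's adjustment (21 higher, 19 lower). Read with 4 denominator degrees of freedom, the deposited F left 3, 1 higher (miR-7-5p) and 2 lower (miR-221-3p and miR-222-3p). With microRNAs under 10 CPM left out before adjustment 62 were higher and 40 lower, and with a 1.5-fold minimum 26 were higher and 33 lower. Centring on the median gave 30 higher and 62 lower, and on a trimmed mean 28 and 63. The calls lost by centring on the median were let-7f-5p, miR-10399-3p, miR-1180-3p, miR-1296-5p, miR-1307-3p, miR-197-3p, miR-22-3p, miR-425-3p, miR-532-5p, miR-671-5p and miR-767-5p. Arm differences numbered 11, and 7 with strands of 1 hairpin alone. The differences from sgCYRANO numbered 50, and 52 to 58 under the 3 alternatives. Except where the alternative tests fewer microRNAs or sets a stricter threshold, the cause was not tested. No paired analysis was possible because the file holds no values of single libraries, and leaving out each library was not run for the same reason. WT had 3810000 reads and ZSWIM8 KO 7060000, so low values are less precise in WT.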

Other observations

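The first base of the mature strand, which Argonaute contacts, was U in 23 of 34 higher calls with a sequence at 10 CPM or more (67.6%), in 10 of 29 lower calls (34.5%) and in 123 of all 270 such microRNAs (45.6%). Strands of clusters and families share sequence and are not independent, and this split was not tested. The median length was 22 bases in each set, and the median GC content was 48.9% in the higher calls, 47.8% in the lower calls and 47.8% in all.

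Chromosomes were compared over microRNAs at 10 CPM or more with a RefSeq sequence. The 10 from chromosome 13 alone had a median log2 fold change of -0.33 with 3 falls and no rise. From chromosome 7 alone 8 of the 17 were called, 2 higher and 6 lower. Of all 304 at 10 CPM or more, 70 were called (23.0%), 38 higher and 32 lower, with a median of 0.13. Both chromosomes were singled out after their values were seen. Most of their calls belong to the clusters described above.

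In the authors' deposited table the calls nearest the threshold were miR-532-5p and miR-197-3p (adjusted p = 0.0484 for both, edgeR), and those just outside it were miR-331-3p and miR-30d-3p (adjusted p = 0.0517 for both, edgeR). miR-30d-3p, the partner of miR-30d-5p, went from 45.2 to 72.4 CPM. The 3 microRNAs that differed from sgCYRANO without being called in ZSWIM8 KO were miR-181a-5p, miR-29a-3p and miR-504-5p. Without an adjustment, 172 of the 868 microRNAs had a p under 0.05.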
